A study of Mus musculus with 22 samples.

Results

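Complex I of the respiratory chain was followed through its nuclear genes in RNA-seq of whole spinal cord from C57BL/6 mice. Every protein-coding gene whose symbol starts with Nduf was taken, which gave 46 of the 21995 genes in the deposited tables. Of these, 36 encode subunits of the enzyme, 8 encode assembly factors with names that start with Ndufaf, and 2, Ndufa4 and Ndufa4l2, carry the name although neither is a subunit of complex I (Ndufa4 is placed in complex IV). The subunits were divided into 16 of the matrix arm, 19 of the membrane arm, and Ndufab1, which sits in both. Ndufb1 was not analysed here. The study holds 4 groups in 2 experiments. Young wild-type mice of 3–4 months (n = 8) were compared with Old wild-type mice of 18–24 months (n = 8), all males, with libraries made by the Roche KAPA HyperPrep kit. G93a mice (n = 3), a high-copy line with mutant (G93A) human SOD1 that models familial amyotrophic lateral sclerosis (ALS), had symptoms when tissue was taken and were compared with their own wild-type controls (n = 3). These 6 mice were 5–6 months old by the labels, with 2 females and 1 male in each group, and their libraries were made with Illumina TruSeq. The transgene is active throughout the body and not in 1 cell type, and the sex of single libraries was not given, so it could not enter a fit.

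Complex I takes electrons from NADH and passes them to ubiquinone, and it moves protons out of the mitochondrial matrix as it does so. It is shaped like an L. The matrix arm holds the N module, where NADH is oxidised, and the Q module, where ubiquinone is reduced, while the membrane arm holds the proton channels. A few subunits are encoded in mitochondrial DNA and the others in the nucleus. Assembly factors help to build the enzyme or modify its subunits and are not kept in the finished complex. Neurons, with their long axons and high demand for ATP, depend strongly on this enzyme.

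The libraries held from 5078092 to 9358055 counts in Young, from 5664869 to 9145600 in Old, from 10693060 to 13219797 in controls and from 9675610 to 11872431 in G93a mice. A count of 3 in a library was worth at most 0.581 CPM (counts scaled to library size with TMM factors), and all 46 genes lay above this level in every library, the lowest value being 0.763 CPM for Ndufa4l2 in a G93a library. The Nduf genes took from 0.312% to 0.372% of the counts in Young, from 0.309% to 0.389% in Old, from 0.306% to 0.323% in controls and from 0.256% to 0.293% in G93a libraries. Libraries are numbered here in the order of the table's columns, since the columns carry no replicate number. In 2 libraries markers of Schwann cells, which myelinate peripheral nerves, stood apart. Of these markers 3 genes summed to 28.7 CPM in G93a library 1 and to 20.0 CPM in Old library 5, and to between 1.08 and 4.15 CPM in the other 20. Old library 6 had the most RNA of the mitochondrially encoded complex I genes, 70356 CPM in sum against 21211 to 42747 CPM in the other Old libraries.

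The level of a gene was compared between genes on the FPKM scale, which takes transcript length into account. In Young mice the median over the 16 matrix arm genes was 91.8 FPKM, from Ndufs4 at 29.4 to Ndufv2 at 166 FPKM. The 19 membrane arm genes had a median of 97.0 FPKM, from Ndufa11 at 19.5 to Ndufb8 at 271 FPKM. The assembly factors were lower, with a median of 15.7 FPKM and a range from Ndufaf6 at 6.38 to Ndufaf2 at 38.0 FPKM. In controls the same 3 medians were 75.8, 84.3 and 15.5 FPKM. Levels of the 2 experiments are not compared, because their library kits differed.

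The start regions of 3 genes are shown because the comparisons turn on them. Ndufb8 was the only Nduf gene called higher in Old and lower in G93a mice, Ndufaf4 the only one called lower in both, and Ndufaf2 had the most negative log2 fold change among the genes called in G93a mice. The sequences are from RefSeq on the build GRCm38.p6. Each runs 5′ to 3′ on the strand of the gene, from 250 bases before the start of transcription to 50 bases after it, and covers promoter and the first transcribed bases. Ndufb8 is at chr19:44555393-44555692 on the minus strand, Ndufaf4 at chr4:24897833-24898132 on the plus strand, and Ndufaf2 at chr13:108158576-108158875 on the minus strand. Capitals mark matches, on either strand, to 4 short motifs of factors known for nuclear genes of the respiratory chain: GCGCATGC (part of the NRF1 motif), CCGGAAG (ETS family, such as GABPA), GGGCGG (SP1) and AAGATGGC (YY1).
Ndufb8: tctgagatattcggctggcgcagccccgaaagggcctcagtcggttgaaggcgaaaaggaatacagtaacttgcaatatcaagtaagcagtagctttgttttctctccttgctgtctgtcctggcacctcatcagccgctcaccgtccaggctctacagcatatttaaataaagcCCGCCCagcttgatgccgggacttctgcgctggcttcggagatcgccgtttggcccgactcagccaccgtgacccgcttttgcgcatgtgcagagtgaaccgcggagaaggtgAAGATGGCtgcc
Ndufaf4: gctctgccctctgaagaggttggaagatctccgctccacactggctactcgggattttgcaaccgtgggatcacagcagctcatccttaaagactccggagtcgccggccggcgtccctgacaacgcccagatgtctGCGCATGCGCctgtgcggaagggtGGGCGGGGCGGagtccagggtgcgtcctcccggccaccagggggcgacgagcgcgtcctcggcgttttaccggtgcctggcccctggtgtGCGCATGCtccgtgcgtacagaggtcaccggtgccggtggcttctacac
Ndufaf2: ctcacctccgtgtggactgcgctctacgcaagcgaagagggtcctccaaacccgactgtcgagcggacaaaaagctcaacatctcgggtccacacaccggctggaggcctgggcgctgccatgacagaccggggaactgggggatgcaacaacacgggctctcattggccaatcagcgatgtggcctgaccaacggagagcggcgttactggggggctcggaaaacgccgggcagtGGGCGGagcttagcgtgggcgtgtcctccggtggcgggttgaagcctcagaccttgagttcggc
The Ndufb8 region held 2 matches, GGGCGG on the opposite strand and AAGATGGC on the printed strand. In the Ndufaf4 region there were 5, namely 3 of GCGCATGC, of which 2 overlap on opposite strands, and 2 of GGGCGG. The Ndufaf2 region held a single GGGCGG. Of the 46 genes, 40 had an entry in the table. AAGATGGC stood in 8 of these 40 promoters (20%) against 3.19% of all 27025 promoters, GCGCATGC in 5 (12.5%) against 3.05%, GGGCGG in 21 (52.5%) against 38.2%, and CCGGAAG in 6 (15%) against 9.93%. A match is a description of the letters and not a bound site.

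The aging comparison asked whether RNA of complex I changes in the spinal cord over the life of a healthy mouse. Changes were small. The log2 fold change (Old minus Young) lay between −0.22 and 0.25 in all 46 genes. None passed the study's own threshold of a log2 fold change beyond 1, which 303 of all 13647 genes passed at an adjusted p under 0.05. At an adjusted p under 0.05 (edgeR's quasi-likelihood test, adjusted over all 13647 genes tested), 7 genes rose and 1 fell. Over all genes tested 13.5% were called higher and 12.9% lower, so that the 7 of 46 (15.2%) were near the background. The median of the 46 was 0.08, with 35 positive values, and the median of all genes was 0.00. In whole tissue, fewer cells of a type and less RNA per cell cannot be told apart.

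Of the 7 genes that rose, 6 were of the membrane arm. None of them rose with the correction for recovered transcript length given below. Ndufb8, Ndufb9 and Ndufb10 are accessory subunits at the distal end of that arm. Ndufb9 ranged from 92.5 through a median of 100.1 to 113 CPM in Young and from 108 through 123 to 132 CPM in Old mice. The groups overlapped at their edges, and the log2 fold change was 0.25 ± 0.05 (SE), with an adjusted p of 0.000514. Ndufb8 ranged from 164 through 176 to 191 CPM in Young and from 182 through 202 to 225 CPM in Old, a log2 fold change of 0.21 ± 0.05 (adjusted p = 0.00168). Ndufb10 went from a median of 117 to one of 130.5 CPM (log2 fold change 0.18 ± 0.05, adjusted p = 0.00756). These 3 were called in each of the 16 fits that left out 1 library.

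The other 4 genes that rose did so by less or with more spread. Of these, 3 belong to the proximal membrane arm: Ndufa8, which has disulfide bonds of the kind made in the intermembrane space (log2 fold change 0.13 ± 0.04, adjusted p = 0.0218), Ndufa3 (0.14 ± 0.05, adjusted p = 0.0329) and Ndufa13, also known as GRIM-19 (0.17 ± 0.06, adjusted p = 0.0346), which was named after its values were seen. They were called in 13, 8 and 8 of the 16 fits with 1 library left out. The remaining one was Ndufv3, an accessory subunit of the N module, which had 52.2, 65.1 and 67.7 CPM as its lowest, median and highest value in Young and 63.5, 71.5 and 102 CPM in Old mice. Its log2 fold change was 0.21 ± 0.08 (adjusted p = 0.0442), and it was called in 4 of the 16 fits.

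None of the 7 core subunits of the matrix arm, which carry the flavin and the iron-sulfur clusters or form the ubiquinone site, passed the edgeR test in aging. Ndufs1, the large iron-sulfur subunit of the N module, was lower on average, with values from 160.1 to 171 CPM in Young and from 149 to 170 CPM in Old (log2 fold change −0.09 ± 0.04, adjusted p = 0.0762). It was the only one of the 7 with an unadjusted p under 0.05 in edgeR, and DESeq2 called it lower. Ndufv1 and Ndufv2 had 0.13 ± 0.09 and 0.07 ± 0.04. In all, 1 of 16 matrix arm genes (6.25%) rose, with a median log2 fold change of 0.10 for the arm. Of 19 membrane arm genes 6 (31.6%) rose, with a median of 0.10, where 13.5% of all genes were called higher. With the correction for recovered length given below, none of either arm rose and 3 of the membrane arm fell. With it 7.94% of all genes were called lower. The difference in count between the arms was not tested.

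Among the assembly factors, Ndufaf4, which works in the early assembly of the Q module, was the only one to change with age. It ranged from 23.7 through 28.7 to 29.4 CPM in Young and from 21 through 23.5 to 26.9 CPM in Old mice. The groups overlapped, and the log2 fold change was −0.22 ± 0.06 (adjusted p = 0.0145), called in each of 16 fits with 1 library left out. On the FPKM scale its direction turned: the medians were 11.6 in Young and 12.4 FPKM in Old, and limma on log2(FPKM + 1) gave a difference of 0.06. The other 7 factors lay between −0.08 and 0.15 and did not pass the test, and the median of all 8 was −0.03. The 1 of 8 that fell (12.5%) was near the 12.9% of all genes called lower. No Nduf gene had groups that did not overlap in either direction, where 3.66% of all genes had every Old library above every Young library and 1.66% every one below.

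The number of genes that rose depended on single libraries. It was 3 without Young library 4, and 4 without Young library 3 or 6 or without Old library 3, 4 or 5, while leaving out Old library 2 gave 10. Called higher over all genes were 1668 of 13740 without Young library 4 and 1834 of 13676 without Old library 2. In the fits that gave 4 the number over all genes was from 1632 to 1736. Old library 5 is the one with Schwann cell markers. Without Old library 6, 9 rose and 1 fell, where 2179 of 13745 genes were called higher and 2200 lower. Microglial markers moved with age in the same libraries: 11 of 12 rose, with a sum from 407 to 453 CPM in Young and from 703 to 1228 CPM in Old. Of 10 neuronal markers 4 fell and 1 rose, with sums from 8400 to 9420 and from 7314 to 9376 CPM. Over all genes tested 13.5% were called higher and 12.9% lower. The markers were not tested as sets. The part of the marker changes in the Nduf result was not tested.

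**Figure D1:**
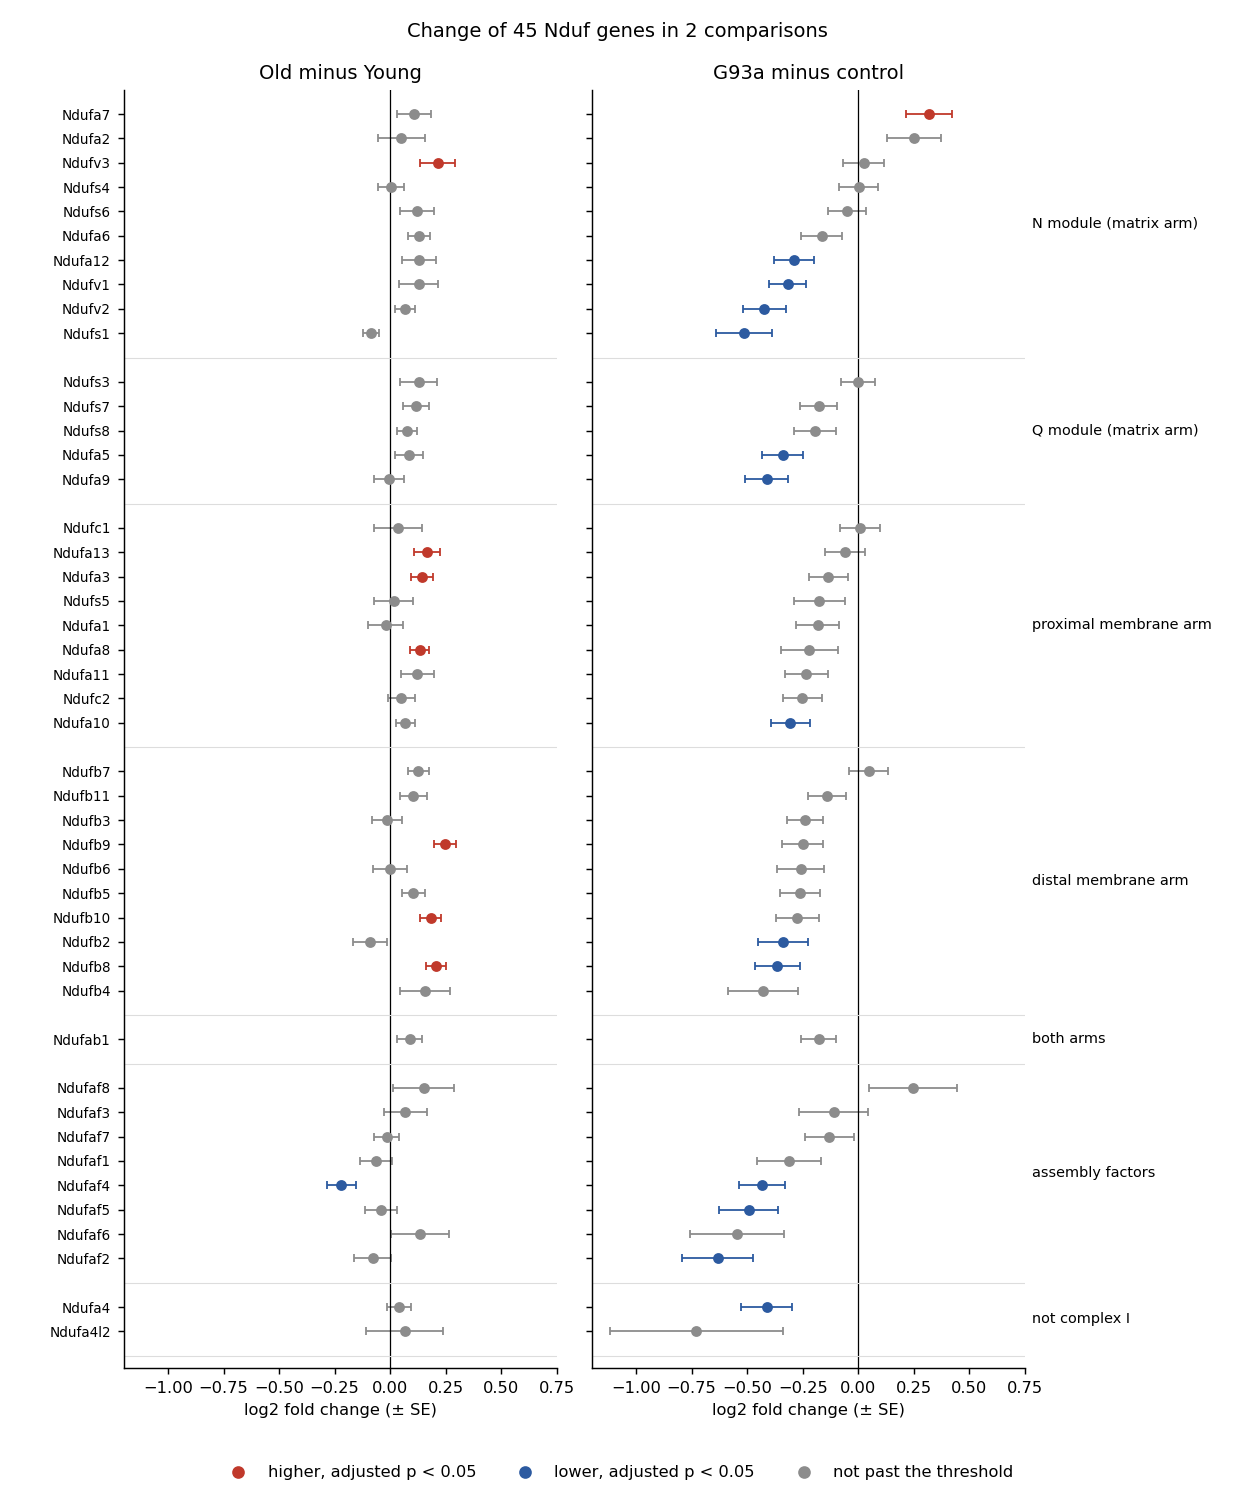
Log2 fold change of 45 of the 46 Nduf genes (points, with SE bars) in Old minus Young (left) and G93a minus control (right), grouped by module of the enzyme. Red points passed the test as higher and blue points as lower: 7 and 1 in aging, 1 and 13 in G93a mice, where most points lie left of 0.

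The G93a comparison asked the same of symptomatic ALS model mice. Here most of the genes had a negative change. The log2 fold change (G93a minus control) was negative in 39 of 46 genes, with a median of −0.24 against 0.00 for all 14386 genes tested, and it ranged from −0.73 to 0.32. At an adjusted p under 0.05, 13 genes fell and 1 rose, where 15.5% of all genes were called lower and 18.4% higher. In 29 of 46 genes every G93a library was below every control library, against 24.7% of all genes, and in 1 gene every one was above, against 25.7%. No Nduf gene had a log2 fold change beyond 1 that passed the test, where 1395 of all 14386 genes did.

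In the N module 4 of 10 genes fell (40%), where 15.5% of all genes were called lower. Among the 4 were the 3 core subunits, which form the path of the electrons from NADH. Ndufs1 had 169, 182 and 166 CPM in controls and 112, 144 and 105 CPM in G93a mice. All 3 G93a libraries were below the controls, and the log2 fold change was −0.51 ± 0.12 (adjusted p = 0.0137). Ndufv2, which carries an iron-sulfur cluster, had 164, 159 and 166 CPM in controls and 109, 135 and 121 CPM in G93a mice (log2 fold change −0.42 ± 0.10, adjusted p = 0.0114). Ndufv1, which binds the flavin that takes electrons from NADH, had 147, 141 and 148 CPM against 109.8, 119 and 121 CPM (log2 fold change −0.32 ± 0.08, adjusted p = 0.0170). Ndufa12, an accessory subunit that takes the place of Ndufaf2 late in assembly, went from a mean of 48.7 ± 2.14 to 39.9 ± 2.68 CPM (SD, n = 3 each), a log2 fold change of −0.29 ± 0.09 (adjusted p = 0.0371).

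The same module held the exceptions. Ndufa7 had 30.9, 32.0 and 29.9 CPM in controls and 43.1, 36.8 and 35.9 CPM in G93a mice. It was the only Nduf gene that rose (log2 fold change 0.32 ± 0.10, adjusted p = 0.0403), and its transcript has a near-identical copy in a processed pseudogene, so that its reads are uncertain. Ndufa2 was also higher on average (0.25 ± 0.12, adjusted p = 0.140), while Ndufv3 was at 0.02 ± 0.09. Values in the N module therefore ran from −0.51 to 0.32, with a median of −0.11, the widest range of the 4 modules.

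In the Q module 2 of 6 genes fell (33.3%), where 15.5% of all genes were called lower. Ndufa9, which sits where the matrix arm meets the membrane, had 104, 99.2 and 106 CPM in controls and 74.2, 87.1 and 71.2 CPM in G93a mice (log2 fold change −0.41 ± 0.10, adjusted p = 0.0122). Ndufa5 had 53.6, 58.0 and 57.5 CPM against 44.9, 47.8 and 41.0 CPM (−0.34 ± 0.09, adjusted p = 0.0205). The 4 core subunits of this module did not pass the test. Ndufs7 and Ndufs8 had log2 fold changes of −0.18 and −0.19 with groups that did not overlap, and Ndufs3 had −0.00 ± 0.08, with 74.9, 73.2 and 77.6 CPM in controls and 73.3, 77.4 and 74.8 CPM in G93a mice.

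In the membrane arm Ndufb8, Ndufb2 and Ndufa10 fell. Ndufb8, whose start region is shown above, had 148, 130.4 and 130.4 CPM in controls and 98.6, 118 and 100.5 CPM in G93a mice (log2 fold change −0.36 ± 0.10, adjusted p = 0.0233). Ndufa10, a proximal subunit that resembles nucleoside kinases, went from 175 ± 2.97 to 141 ± 11.3 CPM (SD, n = 3 each; −0.31 ± 0.09, adjusted p = 0.0263). Ndufb2 fell by 0.34 ± 0.11 on the log2 scale (adjusted p = 0.0444). The other 2 distal subunits that rose with age, Ndufb9 and Ndufb10, had −0.25 ± 0.09 and −0.27 ± 0.10 and adjusted p-values of 0.0613 and 0.0541. In 9 of 10 distal genes the groups did not overlap and G93a was the lower, and in 4 of 9 proximal genes. This held for 24.7% of all genes. By the test only 2 of 10 distal and 1 of 9 proximal genes fell, where 15.5% of all genes were called lower.

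Which arm was more affected depended on the measure. By the test, 6 of 16 matrix arm (37.5%) and 3 of 19 membrane arm genes (15.8%) fell, where 15.5% of all genes were called lower, so that this count of the membrane arm was at the background. With the correction for recovered length given below, 9 of 16 and 12 of 19 (63.2%) fell, where 14.8% of all genes were called lower. By median log2 fold change without the correction the matrix arm was at −0.17 and the membrane arm at −0.24. The groups did not overlap, with G93a lower, in 9 of 16 and in 13 of 19 genes, against 24.7% of all genes. The mean log2 CPM of the matrix arm was 6.14 to 6.20 in controls and 5.97 to 6.07 in G93a mice, and that of the membrane arm was 5.93 to 6.05 and 5.72 to 5.84. The gap between the arm means was 0.15 to 0.21 in controls and 0.23 to 0.26 in G93a libraries, so that the membrane arm was the lower by a little more in each G93a library. In Young and Old libraries this gap ran from 0.17 to 0.24 and from 0.11 to 0.27. The arms share libraries and were chosen as lists, and no test was made between them.

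**Figure D2:**
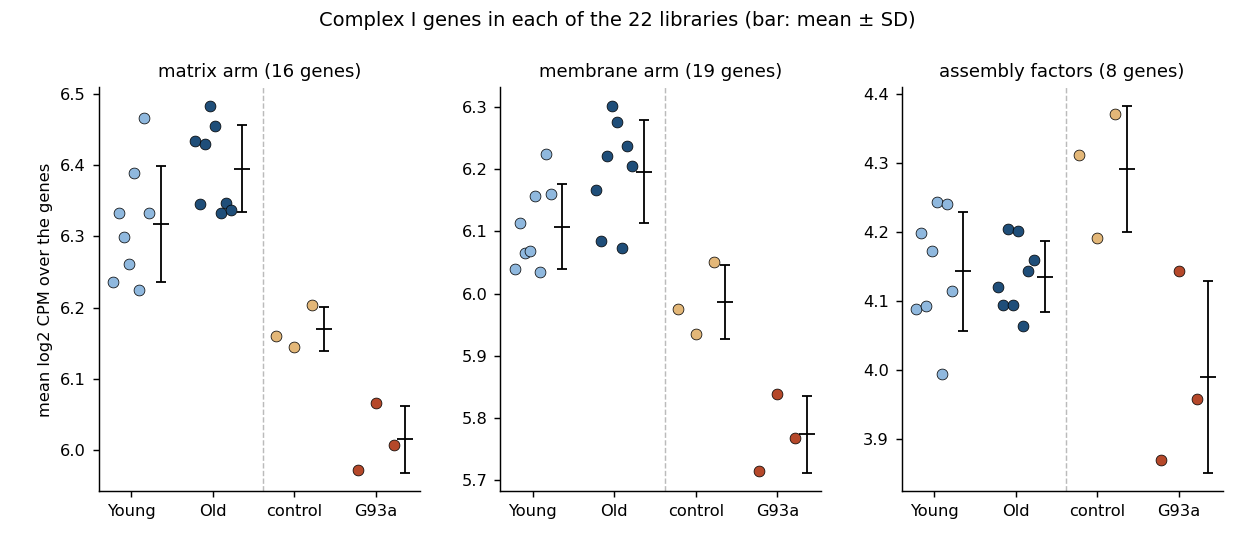
Mean log2 CPM over the genes of the matrix arm, the membrane arm and the assembly factors in each library (points), with the mean ± SD of each group as bars; the dashed line separates the 2 experiments, whose kits differed, and each vertical axis has its own range. The 3 G93a libraries lie below the 3 controls in all 3 panels, and Young and Old overlap.

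The assembly factors had a median of −0.37 over 8 genes, more negative than that of either arm. Of the 8, 3 fell (37.5%), where 15.5% of all genes were called lower. Ndufaf2, a relative of Ndufa12 that is present in late assembly, had 26.3, 28.3 and 27.2 CPM in controls and 13.5, 21.3 and 18.1 CPM in G93a mice (log2 fold change −0.63 ± 0.16, adjusted p = 0.0162). It shares exon bases with a long non-coding RNA gene on the other strand, and whether reads were counted by strand is not stated, so reads of the 2 genes cannot be told apart. Ndufaf5, which modifies an arginine of Ndufs7, had 30.0, 30.1 and 30.1 CPM in controls and 17.8, 25.3 and 21.2 CPM in G93a mice (−0.49 ± 0.13, adjusted p = 0.0208). Ndufaf4 had 38.7, 33.6 and 41.0 CPM against 27.7, 29.0 and 27.1 CPM (−0.43 ± 0.10, adjusted p = 0.0134), and here the FPKM medians went the same way, from 14.5 to 10.8 FPKM. Ndufaf6 had a log2 fold change of −0.54 ± 0.21 that did not pass the test (adjusted p = 0.0753). Ndufaf8, the partner of Ndufaf5, was the only positive one at 0.25 ± 0.20 (adjusted p = 0.369).

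Of the 2 genes that are not complex I subunits, Ndufa4 of complex IV had 194, 193 and 205 CPM in controls and 125, 169 and 149.7 CPM in G93a mice (−0.41 ± 0.11, adjusted p = 0.0230). Its relative Ndufa4l2 had 2.94, 1.85 and 1.84 CPM against 0.763, 1.81 and 1.43 CPM. It had the lowest level and the largest error, a log2 fold change of −0.73 ± 0.39 (adjusted p = 0.180).

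**Figure D3:**
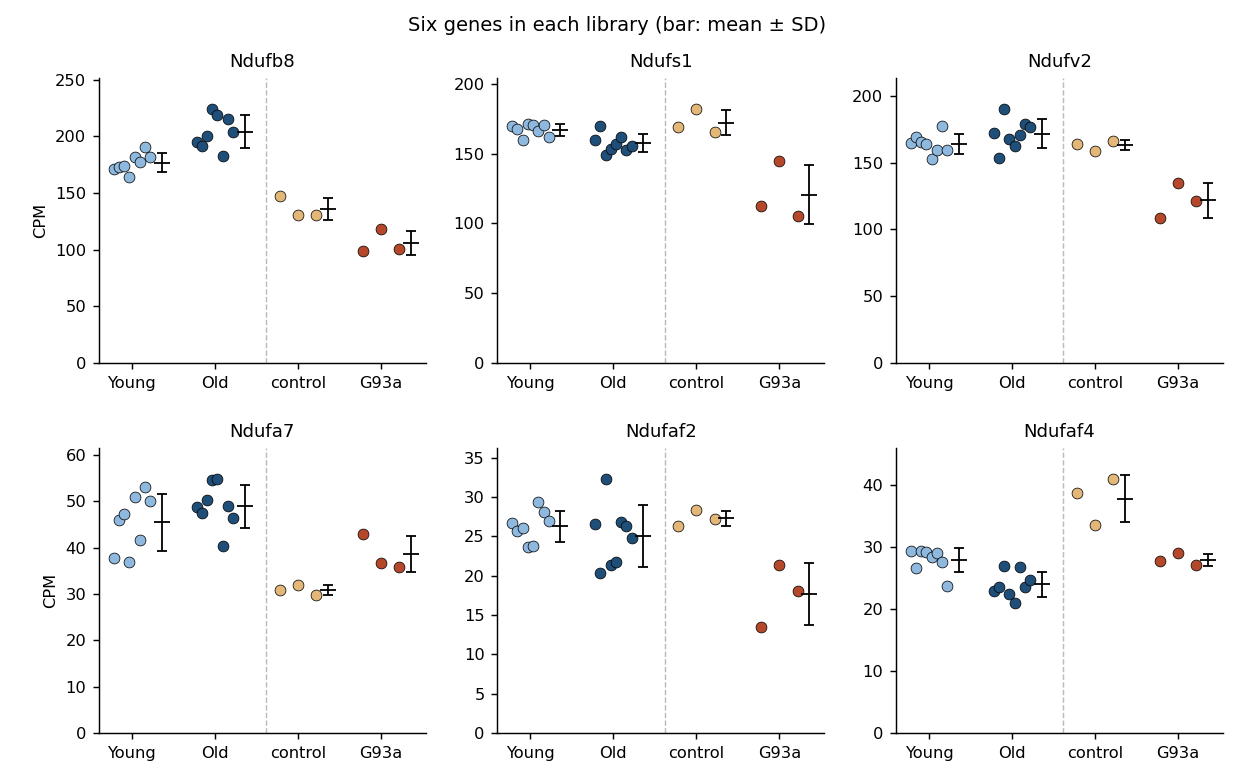
CPM of Ndufb8, Ndufs1, Ndufv2, Ndufa7, Ndufaf2 and Ndufaf4 in each of the 22 libraries (points), with the mean ± SD of each group (bars) and an axis from 0. In G93a mice Ndufa7 lies above the controls and the other 5 genes below, and Ndufb8 is higher and Ndufaf4 lower in Old mice with overlapping groups.

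The calls in G93a mice were sensitive to single libraries, while the arm medians were less so. Without G93a library 3 none of the 46 passed the edgeR test, while 17 had a negative change with an unadjusted p under 0.05, at medians of −0.16 and −0.25 for the matrix and membrane arms, and the share of all genes called lower went from 15.5% to 4.92%. Without control library 1, 2 or 3 the number that fell was 6, 4 or 3, where 9.19%, 6.56% and 8.6% of all genes were called lower, so that the 4 and the 3 of 46 were near the background. Without G93a library 1, which holds the Schwann cell markers, it was 6 (9.44% of all genes), at medians of −0.14 and −0.20. Without G93a library 2 it was 22 (21.7% of all genes). Over these 6 fits Ndufv2 and Ndufa9 were called in 5, Ndufs1 in 4, and Ndufaf2, Ndufaf4 and Ndufa5 in 3 each. Ndufa7 was called in 1.

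Cell markers moved along with these genes. Over all genes tested in G93a mice 18.4% were called higher and 15.5% lower. In G93a mice 8 of 10 neuronal markers fell (median log2 fold change −0.71), with sums of 9563 to 10031 CPM in controls and 3891 to 6427 CPM in G93a mice, and 4 of 6 motor neuron markers fell (sums of 249 to 281 and 136 to 151 CPM). Microglial markers rose in 10 of 12 (sums of 415 to 504 and 1795 to 3604 CPM) and astrocyte markers in 6 of 7 (sums of 5272 to 5824 and 10907 to 17415 CPM). Of 8 oligodendrocyte markers none passed the test. G93a library 2 had the highest neuronal sum, the lowest microglial sum and the highest mean of both arms and of the assembly factors among the 3 G93a libraries. Skeletal muscle markers were near 0 in all libraries, at no more than 5.11 CPM in sum. The part of the changes in cell makeup in the Nduf result was not tested.

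The changes of the 2 comparisons were then set against each other in 1 fit of all 22 libraries, as the difference of G93a minus control less Old minus Young. The comparisons share no library. The difference was negative in 43 of 46 genes, with a median of −0.30. In 24 genes it passed the test as more negative in G93a mice, and in none as more positive (0 also at an unadjusted p under 0.05, and 25 and 0 by DESeq2), where over 14502 genes 14.2% were more negative and 11.6% more positive. Of the 24, 9 were of the matrix arm, 10 of the membrane arm and 3 were assembly factors. Ndufb8 differed by −0.60 ± 0.10 (adjusted p = 8.82e-05), Ndufb9 by −0.53 ± 0.09, Ndufv2 by −0.52 ± 0.09 and Ndufs1 by −0.45 ± 0.10. For Ndufaf4, which fell in both, the difference of −0.24 ± 0.12 did not pass (adjusted p = 0.13). Without G93a library 1 the number of Nduf genes with a difference was 10, and without control library 3 it was 13. The share of all genes with a difference was not counted in these fits, so the drop is not read as one of the Nduf genes.

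Transcript length bears on both comparisons. The Nduf transcripts are short: their median length, recovered from the ratio of counts to FPKM, was 0.254 of that of the median gene, and 35 of 46 were among the 10% of genes tested with the shortest transcripts. Over all genes the median log2 fold change went down steadily with length, from 0.14 in the shortest 10% to −0.14 in the longest 10% in aging, and from 0.14 to −0.16 in G93a mice. In the shortest 10% the 35 Nduf genes had a median of 0.10 in aging, below that of all genes there, and of −0.22 in G93a mice, on the opposite side of 0.

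**Figure D4:**
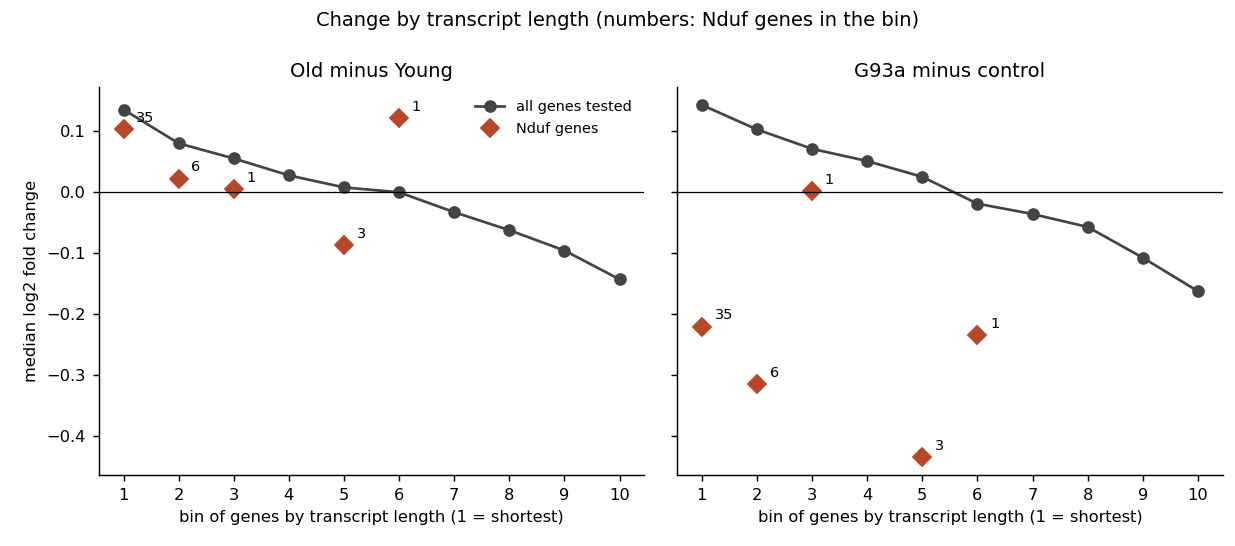
Median log2 fold change of all genes tested (grey line) and of the Nduf genes (diamonds, with their number) in 10 equal bins of genes from the shortest to the longest transcripts, for Old minus Young (left) and G93a minus control (right). The grey line falls from left to right in both, and the 35 Nduf genes in the shortest bin lie at 0.10 in aging and at −0.22 in G93a mice.

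With a loess correction of each library for this length, the genes that had risen with age no longer passed. None of the 46 rose in edgeR (1, Ndufb9, at an unadjusted p under 0.05) and 5 fell, where 7.94% of all genes were called lower. The 5 were Ndufaf4 (−0.24), Ndufa4 (−0.15), Ndufb2 (−0.25) and, named after their values were seen, Ndufa1 (−0.22) and Ndufb3 (−0.16). Ndufb8 and Ndufb9 had 0.04 and 0.09 and did not pass. The correction moved G93a values downward as well, and the median of the 46 went from −0.24 to −0.37, where in aging it went from 0.08 to −0.06. In G93a mice 27 genes fell and none rose (0 also at an unadjusted p under 0.05), where 14.8% of all genes were called lower. These were 9 of 16 matrix arm genes (median −0.32), 12 of 19 membrane arm genes (median −0.39), 4 of 8 assembly factors (median −0.42), Ndufab1 and Ndufa4. Ndufa7 was at 0.19 and did not pass. This correction was chosen after the tables were seen, and the cause of the trend with length was not tested.

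Other genes of complex I and of the respiratory chain were taken as lists. The 7 subunits encoded in mitochondrial DNA did not pass the test in aging (median log2 fold change −0.04). In edgeR 1 had an unadjusted p under 0.05 there, and DESeq2 called 0. In G93a mice 6 of the 7 fell, with a median of −0.62, where 15.5% of all genes were called lower. The largest of these were mt-Nd4l at −0.80 ± 0.13 and mt-Nd2 at −0.79 ± 0.13, and mt-Nd3 had −0.10 ± 0.25 and did not pass. Of 12 assembly factors with other names none passed in aging. In G93a mice 2 of the 12 fell (16.7%), which was near the 15.5% of all genes called lower. These were Ecsit (−0.36 ± 0.10, adjusted p = 0.0271) and Tmem126b (−0.31 ± 0.09, adjusted p = 0.0301), both of a complex that assembles the membrane arm. The other genes of the list, Acad9, Timmdc1 and Tmem186 among them, did not pass. Coa1 was not analysed here.

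The nuclear subunits of complexes II to V had medians on the same side of 0 as the arms of complex I before the correction for length. In aging 2 of 4 genes of complex II rose, 2 of 9 of complex III, 4 of 10 of complex IV and 3 of 16 of complex V, and none fell, where 13.5% of all genes were called higher, with medians from 0.07 to 0.12. With the correction for recovered length none of these rose, 3 of complex IV and 2 of complex V fell (7.94% of all genes were called lower), and the medians were 0.01, −0.04, −0.10 and −0.06, so that 3 of the 4 turned. In G93a mice 1 of 4, 0 of 9, 4 of 10 and 5 of 16 fell and none rose, where 15.5% of all genes were called lower, with medians of −0.06, −0.13, −0.22 and −0.21. In complex II 2 of the 4 genes had a positive change. With the correction 1, 5, 7 and 13 fell, against 14.8% of all genes, with medians of −0.16, −0.26, −0.37 and −0.34. Complex I was not tested against the other complexes.

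**Figure D5:**
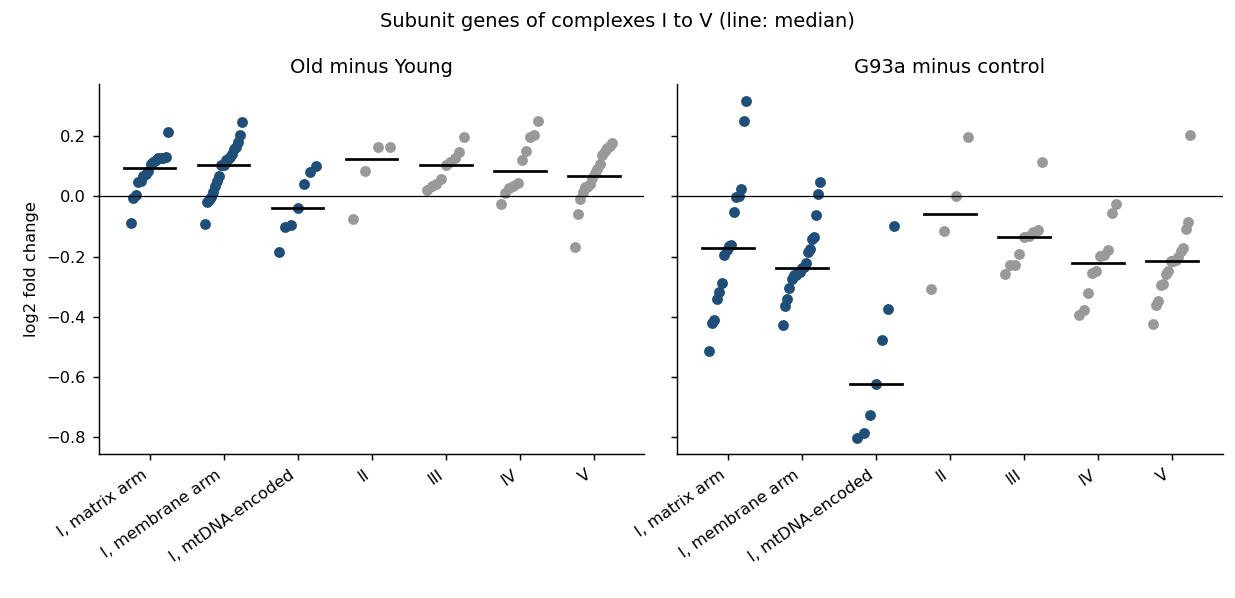
Log2 fold change of each subunit gene (points) and the median (line) for the nuclear matrix arm and membrane arm genes of complex I, its mitochondrially encoded genes, and nuclear genes of complexes II to V, in Old minus Young (left) and G93a minus control (right). Values are without the correction for length. Medians of the nuclear lists are above 0 in aging, where with the correction for recovered length only that of complex II is, and below 0 in G93a mice with and without it, and the mitochondrially encoded genes have the lowest median, −0.62, in G93a mice.

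Of 12 transcription factors and coactivators of nuclear respiratory genes, 4 fell in G93a mice (33.3%), where 15.5% of all genes were called lower. They were Esrrg (log2 fold change −1.09 ± 0.24, adjusted p = 0.00986), Esrrb (−1.0 ± 0.29, adjusted p = 0.0283), Ppargc1a, which encodes the coactivator PGC-1alpha (−0.51 ± 0.14, adjusted p = 0.0246), and Esrra (−0.35 ± 0.09, adjusted p = 0.0171). Nrf1, Gabpa and Yy1, whose motifs were searched above, had −0.05 ± 0.14, 0.33 ± 0.12 and 0.16 ± 0.10 and did not pass. In aging the only one to change was Gabpa, which fell by 0.26 on the log2 scale (adjusted p = 0.0182). There 12.9% of all genes were called lower.

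Some Nduf genes have reads that may belong elsewhere. For 12 of them a processed pseudogene or other copy matches the transcript with at least 90% identity over at least 50% of its length, Ndufa7, Ndufa12, Ndufb2 and Ndufa4 among them. The genes Ndufb8, Ndufb9 and Ndufb2 share exon bases on the same strand with a read-through gene, and 17 genes share exon bases with a gene on the other strand. Without the 14 genes of the first 2 kinds, 5 rose and 1 fell in aging and 9 fell in G93a mice, with arm medians of 0.07 and 0.10 in aging and of −0.19 and −0.25 in G93a mice.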

How the data were processed

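Whole spinal cord RNA-seq of 22 mice was analysed. The authors aligned reads with STAR to mm10 and quantified Ensembl release 88 genes with RSEM, and the deposited tables hold expected counts without scaling, and log2(FPKM + 1) values. Expected counts were rounded to whole numbers. Samples were grouped by labels, and columns by the group in their names. In each comparison genes were kept by filterByExpr (minimum count 10, total 15), scaled by TMM and tested with edgeR 4.0.16 (quasi-likelihood, R 4.3.3) with Benjamini-Hochberg adjustment over all genes, called at adjusted p under 0.05. SE comes from this fit. The difference between comparisons was tested in 1 fit of 22 libraries. Alternatives were RLE factors, DESeq2 1.42.0, other filters, limma 3.58.1 on log2(FPKM + 1), length corrections by loess (span 0.3) and leaving out each library. This edgeR test was first checked on simulated counts with 1 spread for all genes. Of simulated log2 changes of 0.5 it recovered 77% in the aging design and 17% in the G93a design. Of changes of 1.5 it recovered 100% and 99%, and 5.49% and 5.69% of its calls were false. Gene types and positions are from GENCODE M21, and copies of transcripts were sought in it with blastn. The genes, modules, lists and tests were chosen with earlier results of these data known. Genes were named by a rule: core subunits, the 6 smallest adjusted p-values and 3 most extreme changes at either end in each comparison, called assembly factors, Ndufa4 and Ndufa4l2, and genes whose change differed in sign between comparisons. P-values set the difference between groups against the spread between these libraries, which edgeR moderates over genes. The values of 1 Nduf gene and 1 cell marker, which count in the totals, are not reported here. Lists of other genes and of cell markers were counted and not tested as sets; adjusted p-values are over all genes only.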

Additional observations from a re-analysis of the deposited data

Results flagged for a closer look

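In 4 groups of 8 libraries, out of 74 tested, 1 library stood far from the others. Chance alone gives about 1 in 20 where tests are independent. These tests share libraries, and 3 of the 4 came from 1 library, so that the number cannot be set against chance. Young library 4, the shallowest of the Young libraries at 5078092 counts, was the lowest for Ndufa3 at 59.2 CPM with the next at 70.2 CPM, for Ndufb10 at 102.9 CPM with the next at 115 CPM, and for Ndufv3 at 52.2 CPM with the next at 61.2 CPM. Old library 6 was the highest for Ndufv3 at 102 CPM, with the next at 74.3 CPM. These 3 genes are among the 7 that rose with age. Of them Ndufb10 was called in each fit with 1 library left out, Ndufa3 in 8 and Ndufv3 in 4 of 16.

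For 24 genes the change in G93a mice differed from the change in Old mice in the test of the difference. All were more negative in G93a mice. In the matrix arm the differences of the log2 fold changes were Ndufv2 (−0.52), Ndufv1 (−0.47), Ndufs1 (−0.45), Ndufa5 (−0.45), Ndufa12 (−0.45), Ndufa9 (−0.43), Ndufa6 (−0.32), Ndufs7 (−0.32) and Ndufs8 (−0.30). In the membrane arm they were Ndufb4 (−0.62), Ndufb8 (−0.60), Ndufb9 (−0.53), Ndufb10 (−0.48), Ndufa10 (−0.40), Ndufb5 (−0.39), Ndufa11 (−0.38), Ndufa8 (−0.38), Ndufc2 (−0.33) and Ndufa3 (−0.31). Assembly factors had Ndufaf6 (−0.71), Ndufaf2 (−0.58) and Ndufaf5 (−0.48), and Ndufab1 and Ndufa4 had −0.29 and −0.48.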

How the results depend on the processing

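The arm medians in G93a mice were negative under every alternative run. The counts moved more. In aging 4 genes were called higher with no filter on low counts, and 4 higher and 0 lower by limma on log2(FPKM + 1), and DESeq2 called 2 lower. A log2 fold change beyond 1 left 0 genes in either direction in both comparisons, where it left 303 of all 13647 genes in aging and 1395 of 14386 in G93a mice. In G93a mice 0 were higher by DESeq2, with no filter, in 1 fit of all 22 libraries and without the genes with uncertain reads. There 24 were lower in the fit of all 22 libraries and 6 by limma on log2(FPKM + 1), where the membrane arm median was −0.17. For DESeq2, the other filters, limma and the fit of all 22 libraries the share of all genes called was not counted. With 1 library left out, from 3 to 10 genes were higher and from 1 to 2 lower in aging, from 0 to 1 higher and from 0 to 22 lower in G93a mice, and from 10 to 27 more negative in G93a than in Old mice. In the same fits all genes gave from 1632 to 2179 higher and from 1477 to 2200 lower in aging. In G93a mice they gave from 1638 to 3476 higher and from 715 to 3172 lower. For the difference the number over all genes was not counted in these fits.

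Length corrections changed the most. The loess on annotated length gave 1 higher and 7 lower in aging (arm medians −0.060 and −0.085), where 10.1% of all genes were higher and 12.2% lower, so that the 7 of 46 (15.2%) were near the background. In G93a mice it gave 0 higher and 38 lower (−0.46 and −0.57), against 25.8% of all genes lower, but it also moved the median of all genes to −0.033 and −0.12, so relative to all genes the shift is smaller. The correction on recovered length, whose all-gene medians were −0.0034 and 0.0075, gave 0 higher and 5 lower in aging (−0.049 and −0.053) and 0 higher and 27 lower in G93a mice (−0.32 and −0.39).

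Of the 46 genes, 35 were positive in aging, and 8 under either length correction. Among the 32 genes that were followed singly under each alternative, directions turned as follows. In aging under the annotated length: Ndufc2 (−0.17), Ndufa2 (−0.15), Ndufa4l2 (−0.15), Ndufa4 (−0.15), Ndufa5 (−0.13), Ndufs8 (−0.12), Ndufa11 (−0.088), Ndufa8 (−0.085), Ndufa3 (−0.070), Ndufv2 (−0.069), Ndufaf8 (−0.066), Ndufaf6 (−0.063), Ndufa7 (−0.051), Ndufs7 (−0.047), Ndufa12 (−0.038), Ndufa6 (−0.028), Ndufa10 (−0.024), Ndufb10 (−0.016) and Ndufs3 (−0.0065). In aging under the recovered length: Ndufa4 (−0.15), Ndufa2 (−0.12), Ndufc2 (−0.12), Ndufa5 (−0.11), Ndufa4l2 (−0.11), Ndufab1 (−0.084), Ndufa7 (−0.079), Ndufa10 (−0.064), Ndufa3 (−0.064), Ndufv2 (−0.057), Ndufb5 (−0.053), Ndufs8 (−0.047), Ndufa6 (−0.045), Ndufaf8 (−0.036), Ndufs7 (−0.034), Ndufa12 (−0.033), Ndufb4 (−0.023), Ndufaf6 (−0.0096) and Ndufa8 (−0.00033). In G93a mice under the annotated length: Ndufv3 (−0.19), Ndufaf8 (−0.17) and Ndufa2 (−0.15), and under the recovered length Ndufv3 (−0.13). By limma on log2(FPKM + 1), Ndufa4l2 (−0.041), Ndufb2 (0.037) and Ndufaf4 (0.063) turned in aging and Ndufs3 (0.022) in G93a mice. Ndufs3 (0.010) turned in G93a mice with at least 10 counts in every library, and Ndufv3 (−0.0052) in the fit of all libraries. With 1 library left out, values crossed 0 for Ndufa9 (−0.036 to 0.029) and Ndufa4l2 (−0.032 to 0.13) in aging and for Ndufs3 (−0.023 to 0.022) and Ndufv3 (−0.037 to 0.089) in G93a mice. Apart from Ndufaf4 in aging and the genes of the length corrections, these genes had not passed the test. The trend with length over all genes is given above, and the cause of these turns was not tested.

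No paired analysis was possible because the columns of the tables carry no replicate numbers. With 3 mice a group, a gene that did not pass is not shown to be equal.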

Other observations

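Marker lists not described above moved as follows. Over all genes tested, 18.4% were called higher and 15.5% lower in G93a mice, and 13.5% and 12.9% in aging. In G93a mice 5 of 9 mural cell markers rose and 1 fell (median log2 fold change 0.44), 1 of 5 endothelial markers fell (−0.29), and 0 of 5 red blood cell markers passed the test. Only 2 of the 4 Schwann cell markers were tested there, with 0 called. In aging 4 of 7 astrocyte markers rose and 1 fell (0.17), 1 of 8 oligodendrocyte markers rose and 3 fell (−0.16), 1 of 9 mural cell markers rose, 2 of 5 endothelial markers fell, and none of 6 motor neuron or 5 red blood cell markers passed the test. Of 4 Schwann cell markers 1 was tested and was not called.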
